A study of Mus musculus with 17 samples.

Results

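Pi16, Dpp4, Cd55, Procr, Sema3c, Anxa3, Gfpt2, Plac8, Mfap5 and Ly6c1, which mark fibroblasts of fascia and of the adventitia around vessels, were followed through 17 single cells of mouse back skin. They were taken by symbol, and all 10 had a row among the 8446 rows of the expression table. The cells came from adult C57BL/6 mice of the genotype Prrx1-CreERT;Tomato. These mice carried a tamoxifen-activated Cre driven from Prrx1 and a Tomato reporter, and had been injected with 2 mg tamoxifen per 30 g of body weight on each of 3 days. The tissue was digested at 37 °C with elastase (0.2 mg/ml, 20 min) and collagenase (4 mg/ml, 1.5 h) and passed through strainers of 70 and 40 µm. All cells shared this treatment, and its part in the values was not tested. Tomato-positive cells were sorted and then picked one by one under a fluorescence microscope. The cells are thus those in which the Prrx1 driver had been active, from a skin layer that was not recorded. All 17 cells form 1 group with no animal named and no control group, so levels, spreads and correlations over cells are given as a description of 1 sample, without tests.

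Fibroblasts that carry Pi16 and Dpp4 are known from the loose connective tissue of fascia, adventitia and interstitium in many organs. They are often described as a reservoir from which more specialised fibroblasts arise, and are set apart from fibroblasts that carry Col15a1 and basement membrane genes and lie within the tissue. In skin, such cells are described around vessels and in the fascia, which lies below the papillary and reticular dermis.

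The deposited values were read as log2(FPKM + 1), where FPKM is a fragment count scaled to transcript length and library size. A gene was taken as detected at FPKM 1 or more, which is a value of 1. The sorted values were nearly the same in every cell, with a spread of at most 0.0165 above a value of 3, so that each cell had 4369 rows detected and a top value of 13.69. A level therefore places a gene within its own cell, and the depth behind it is unknown. Cells did differ in how many genes sat at the lowest value, from 871 to 1766. Low values were more alike within cells 1 to 5, 6 to 14 and 15 to 17 than across these sets, with a mean Spearman correlation of 0.275 within and 0.0985 across, over 223 genes that stayed under 2.5 in every cell. These sets had been formed from the low values themselves, which builds in a gap between the 2 means. Of the 17 fibroblast genes listed, 16 had a row and 14 to 16 were detected in each cell, while Dcn, a core fibroblast gene, had no row. Of 17 endothelial genes only Tek, Plvap, Eng and Esam had a row, with 0 to 3 detected per cell. Of 17 immune genes only Csf1r had one, detected in 5 cells, and none of 10 mesothelial genes had one. A gene without a row was not analysed here, and its absence from the table says nothing about its expression. Other lists were found more often. Of 8 Schwann cell genes 4 had a row, with 1 to 4 detected per cell (Pmp22 in all 17, Mbp in 12). Of 10 adipocyte genes 4 had a row, with 0 to 4 per cell (Fabp4 in 12, Cfd in 7). Of 12 mural genes 6 had a row, with 0 to 5 per cell (Higd1b in 7). Of 14 dermal papilla and sheath genes 9 had a row, with 2 to 7 per cell (Vcan and Abi3bp in all 17). With the 6 markers described below as co-varying, these 4 lists had a median r between −0.121 and −0.058.

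Sequences are shown for a near copy that affects the reading of Ly6c1, and for 4 markers of pairs described below. Ly6c1 (chr15:75044018-75048830, minus strand, GRCm38) has a near copy, Ly6c2 (chr15:75108158-75111970, minus strand), and their coding sequences were 97.7% identical, with 9 of 393 bases different. After the stop codon 7 of 382 aligned bases differed (98.2% identical). The first 120 coding bases of each, from GENCODE M21 transcripts, are given 5′ to 3′ with the 6 differing bases in capitals. This stretch was picked because no other of its length in the coding sequence held more differences.
Ly6c1: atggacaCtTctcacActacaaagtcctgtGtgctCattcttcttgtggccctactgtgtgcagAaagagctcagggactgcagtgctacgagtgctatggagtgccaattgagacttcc
Ly6c2: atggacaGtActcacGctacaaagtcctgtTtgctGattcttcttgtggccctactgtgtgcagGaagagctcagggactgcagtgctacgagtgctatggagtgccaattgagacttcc

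Upstream sequence is given for 4 members that take part in correlated pairs described below, Procr with Gfpt2 and Dpp4 with Cd55. The bases come from RefSeq on GRCm38.p6, where 8 of the 10 members had an entry, and stop at the first annotated exon. They run 5′ to 3′ on the strand of the gene. Capitals mark CACCC and TGANTCA, the latter the core letters of an AP-1 site, on either strand. The stretches are chr2:155750967-155751116 (plus strand) for Procr, chr11:49793905-49794154 (plus) for Gfpt2, chr2:62412232-62412481 (minus) for Dpp4 and chr1:130462745-130462994 (minus) for Cd55.
Procr: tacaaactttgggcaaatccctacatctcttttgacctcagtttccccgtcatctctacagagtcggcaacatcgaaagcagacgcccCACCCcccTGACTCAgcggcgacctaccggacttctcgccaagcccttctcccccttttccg
Gfpt2: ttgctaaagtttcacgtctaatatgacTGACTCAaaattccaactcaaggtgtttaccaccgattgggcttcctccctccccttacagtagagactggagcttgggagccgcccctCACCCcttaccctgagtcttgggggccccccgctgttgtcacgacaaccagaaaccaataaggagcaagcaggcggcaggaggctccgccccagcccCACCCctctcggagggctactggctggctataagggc
Dpp4: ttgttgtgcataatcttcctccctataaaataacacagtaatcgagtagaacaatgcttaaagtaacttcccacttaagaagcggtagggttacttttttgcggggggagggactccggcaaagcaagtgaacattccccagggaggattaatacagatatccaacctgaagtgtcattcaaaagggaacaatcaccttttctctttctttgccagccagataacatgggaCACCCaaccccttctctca
Cd55: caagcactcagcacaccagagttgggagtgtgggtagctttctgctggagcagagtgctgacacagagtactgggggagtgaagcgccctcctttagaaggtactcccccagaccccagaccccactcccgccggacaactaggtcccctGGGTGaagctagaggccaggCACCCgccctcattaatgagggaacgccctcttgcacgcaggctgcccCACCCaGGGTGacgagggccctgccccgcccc

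Letters of an AP-1 site stood once in the 250 bases before the start of Procr and once before that of Gfpt2, and in the window of no other member with an entry. Over 32851 such windows of all genes 6.75% held them. The 8 members with an entry had 10 windows, with more than 1 for Plac8 and Ly6c1. The windows of Pi16 and Sema3c and 1 of Plac8 lay wholly within annotated exons. CACCC stood in 9 of the 10 windows, at least 1 for each of the 8 members, and in 52.0% of all windows. Of the other letters searched on both strands, TATAAA stood in 2 of the 10 windows (12.4% of all windows), GGGCGG in 3 (32.7%) and CATNTG in 2 (35.0%). CCCNNGGG stood in 2 of the 10 (11.8%), GGAATG in 1 (12.6%) and TGACGTCA in 0 (1.55%). These are matches of letters only, and some of the motifs can overlap. The motifs were chosen after the values were seen. No binding was measured, and no relation between these letters and the correlations was tested.

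Of the 10 markers 6 were detected in every cell, and each cell had 8 to 10 of them (median 9). At FPKM 10 or more the number detected in every cell was 3. All 10 were detected in cells 2, 5, 6, 10, 11, 15 and 17. Among all 8446 rows 1100 were detected in every cell, and the median row was detected in 8 cells. Only Pi16, Dpp4, Sema3c and Plac8 were ever below the chosen threshold of FPKM 1.

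**Figure D1:**
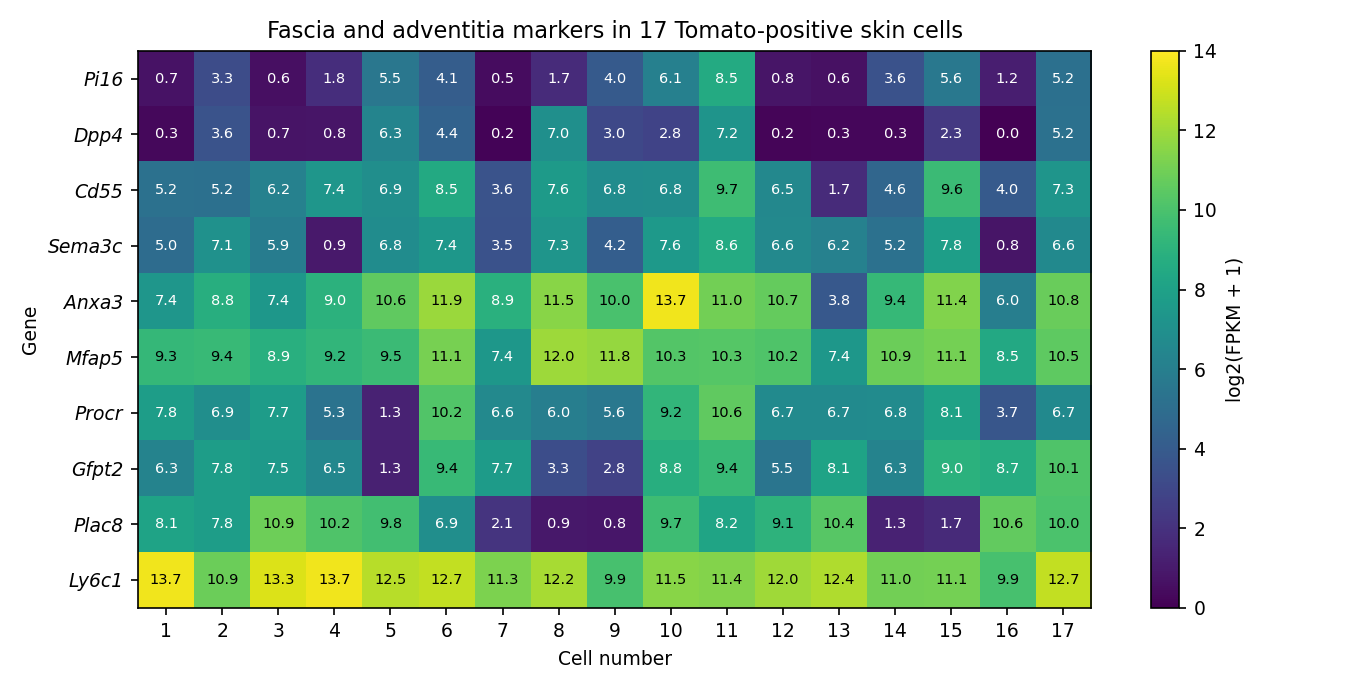
Value of each marker (rows) in each of the 17 cells (columns), as log2(FPKM + 1), with the colour scale running from 0 to 14. Pi16 and Dpp4 are the darkest rows, Ly6c1 is bright throughout with a lowest value of 9.92, and Plac8 is either above 6.9 or at most 2.10.

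The surface and secreted proteins after which these fibroblasts are named came first. Pi16, a protein of the CAP family (ENSMUSG00000024011, chr17:29317680-29330593, plus strand), had its lowest value of 0.45 in cell 7, a median of 3.27 and its highest value of 8.54 in cell 11. It was detected in 12 of 17 cells (70.6%, exact Clopper-Pearson 95% interval 44.0% to 89.7%, which covers counting error over cells only), and in 8 cells at FPKM 10 or more. Its mean was 3.16 (SD 2.43, n = 17 cells). Cell 11 stood 2.46 above the next cell, which was cell 10 at 6.07.

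Dpp4, a membrane protease that removes dipeptides from the ends of chemokines and hormones (ENSMUSG00000035000, chr2:62330073-62412231, minus strand), ran from 0 in cell 16 over a median of 2.31 to 7.24 in cell 11. It was detected in 9 cells (52.9%, interval 27.8% to 77.0%) and had a mean of 2.62 (SD 2.59). Every cell with Dpp4 also had Pi16. Cells 4, 14 and 16 had Pi16 alone, and cells 1, 3, 7, 12 and 13 had neither.

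In the 5 cells with neither, Pi16 lay between 0.45 and 0.79 and Dpp4 between 0.16 and 0.72. All 8 other markers were detected in each of these 5 cells, with Plac8 at 10.38 and Ly6c1 at 12.36 in cell 13, for instance. An unstranded count could not separate Pi16, Dpp4 or Cd55 from the antisense genes AC162182.1, Gm13561 and Gm16083 that overlap them. Whether the counting used strand is not given in the sources used here, and none of the 3 antisense genes has a row.

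Cd55, a membrane-anchored regulator that speeds the decay of complement convertases (ENSMUSG00000026399, chr1:130439027-130462744, minus strand), was detected in all cells, from 1.75 in cell 13 over a median of 6.79 to 9.66 in cell 11. Its mean was 6.32 (SD 2.10), and cell 15 followed cell 11 at 9.56. Its copy Cd55b, detected in 8 cells with a mean of 1.81, shared 331 of the 2484 stretches of 50 bases of the Cd55 transcript, but none of the last 500, where a 3′ end library draws its reads.

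Procr, the receptor for protein C that endothelial cells and some stem cells also carry (ENSMUSG00000027611, chr2:155751117-155755471, plus strand), ran from 1.32 in cell 5 over a median of 6.69 to 10.58 in cell 11. Its mean was 6.82 (SD 2.22). Cell 5 stood apart below the others, the next being cell 16 at 3.75. Of the 10 markers Procr moved most with this count of genes at the lowest value (r = −0.57 over 17 cells), where the other 9 had r between −0.21 and 0.29. The part of this count in the Procr values was not tested.

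Sema3c, a secreted guidance protein that acts through neuropilins and plexins (ENSMUSG00000028780, chr5:17574281-17730268, plus strand), was detected in 15 cells, with a median of 6.56 and the highest value of 8.57 in cell 11. Cells 4 and 16, at 0.93 and 0.77, lay 2.61 or more below all others. Its mean was 5.73 (SD 2.26). Cell 11 thus held the highest value of Pi16, Dpp4, Cd55, Procr and Sema3c.

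Among the intracellular proteins, Anxa3, which binds membrane phospholipids in the presence of calcium (ENSMUSG00000029484, chr5:96793339-96845966, plus strand), had a mean of 9.54 (SD 2.40). It ran from 3.84 in cell 13 over a median of 9.97 to 13.69 in cell 10, where it was the highest of all genes. It was among the 50 highest genes in 7 cells. A gene model, Gm42603, overlaps it on the same strand and has no row.

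Gfpt2, which makes glucosamine phosphate at the entry of the hexosamine pathway (ENSMUSG00000020363, chr11:49794178-49838613, plus strand), was detected in all cells with a mean of 6.96 (SD 2.53). Its values ran from 1.27 in cell 5 over a median of 7.70 to 10.12 in cell 17. Cells 5, 8 and 9, at 1.27, 3.29 and 2.76, lay below the other 14, which started at 5.46.

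Plac8, a small cysteine-rich protein (ENSMUSG00000029322, chr5:100553725-100572245, minus strand), had the widest spread, with a mean of 6.97 and an SD of 3.88. No cell lay between 2.10 and 6.91. Below this gap of 4.80 were cells 7, 8, 9, 14 and 15, at 0.84 to 2.10, and above it were the other 12 cells, up to 10.93 in cell 3. The gap was wider than any in the other 9 markers, the next being 2.61 in Sema3c.

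The matrix protein and the membrane-anchored Ly6 protein were the steadiest. Mfap5, a glycoprotein of elastic microfibrils (ENSMUSG00000030116, chr6:122505845-122529290, plus strand), had a mean of 9.87 (SD 1.35), with the lowest value of 7.40 in cell 13 (7.40 in cell 7 too), a median of 10.16 and the highest value of 11.96 in cell 8. Ly6c1 (ENSMUSG00000079018), known on endothelium as well as on these fibroblasts, had a mean of 11.89 (SD 1.16), from 9.92 in cell 9 over a median of 12.02 to 13.69 in cells 1 and 4. It was the top gene of both these cells, and was among the 50 highest genes in 15 cells. For comparison, the median SD of rows detected in all cells was 1.54.

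**Figure D2:**
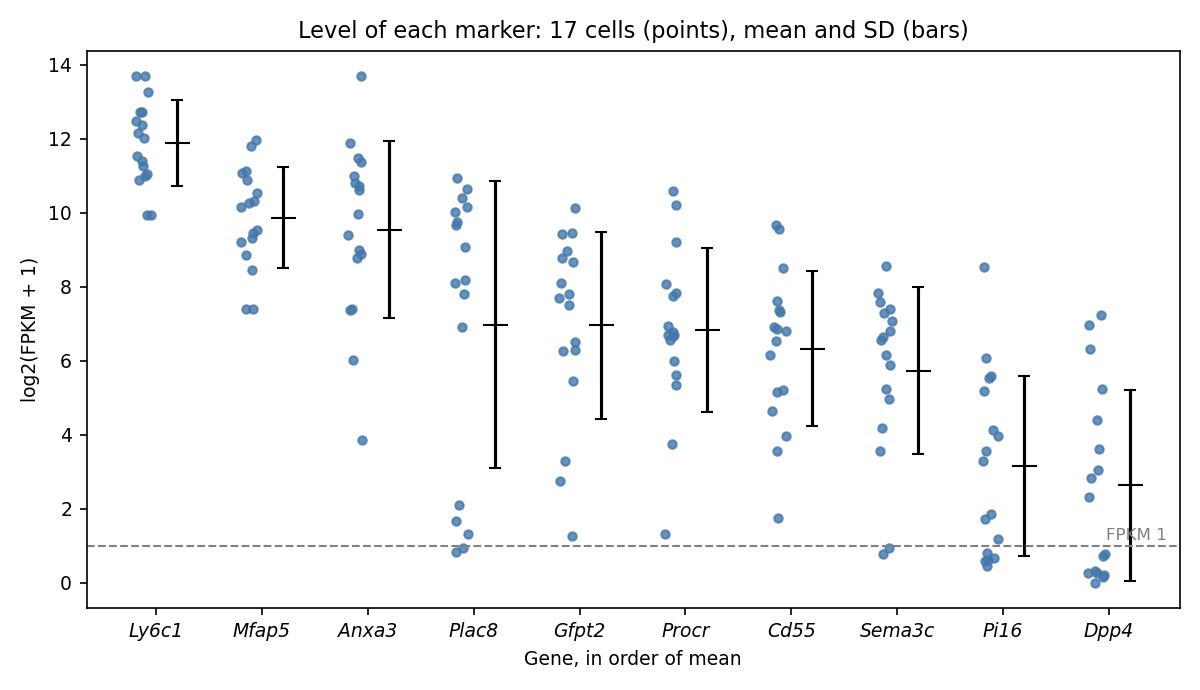
Value of each marker as log2(FPKM + 1) in 17 cells (points), with the mean and SD beside them (bars), in order of mean; the dashed line marks FPKM 1. The means fall from 11.89 for Ly6c1 to 2.62 for Dpp4, and the Plac8 points split at a gap between 2.10 and 6.91.

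On the log2(FPKM + 1) scale, which is per transcript length, the means ran in the order Ly6c1, Mfap5, Anxa3, Plac8, Gfpt2, Procr, Cd55, Sema3c, Pi16 and Dpp4. The steps from Ly6c1 to Mfap5 and from Sema3c to Pi16 exceeded the SD of either gene. The step from Anxa3 to Plac8 exceeded the SD of Anxa3 but not that of Plac8, and the other neighbours lay closer than either SD. By mean level Pi16 and Dpp4 still stood at the 70.5th and 63.0th percentile of all rows, and Ly6c1 at the 99.96th. A 3′ end library gives reads per molecule rather than per length, so the order was also formed with values multiplied by exonic length. Plac8, the shortest of the 10 by that length, then fell from place 4 to place 8, Cd55 moved from 7 to 5, Sema3c from 8 to 6, Gfpt2 from 5 to 4 and Procr from 6 to 7.

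The markers were next compared with each other across cells. Of the 45 pairs, 32 had a Pearson r above 0, and 15 (33.3%) had r of 0.5 or more. Over all 28422030 pairs of 7540 genes detected in 3 or more cells, 2.57% reached 0.5. Among genes detected in all cells 4.19% did, to be set beside 4 of 15 pairs among the 6 markers detected in every cell. The median r of the 45 pairs was 0.222, beside −0.007 over all pairs. It was 0.431 without cell 5, in which Procr and Gfpt2 were lowest, and 0.148 without cell 6, 0.442 in cells 6 to 14 alone, and 0.114 among the 6 markers detected in every cell. All correlations are over the same 17 libraries, which share 1 normalisation and an unknown depth, and the cells are not replicates.

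**Figure D3:**
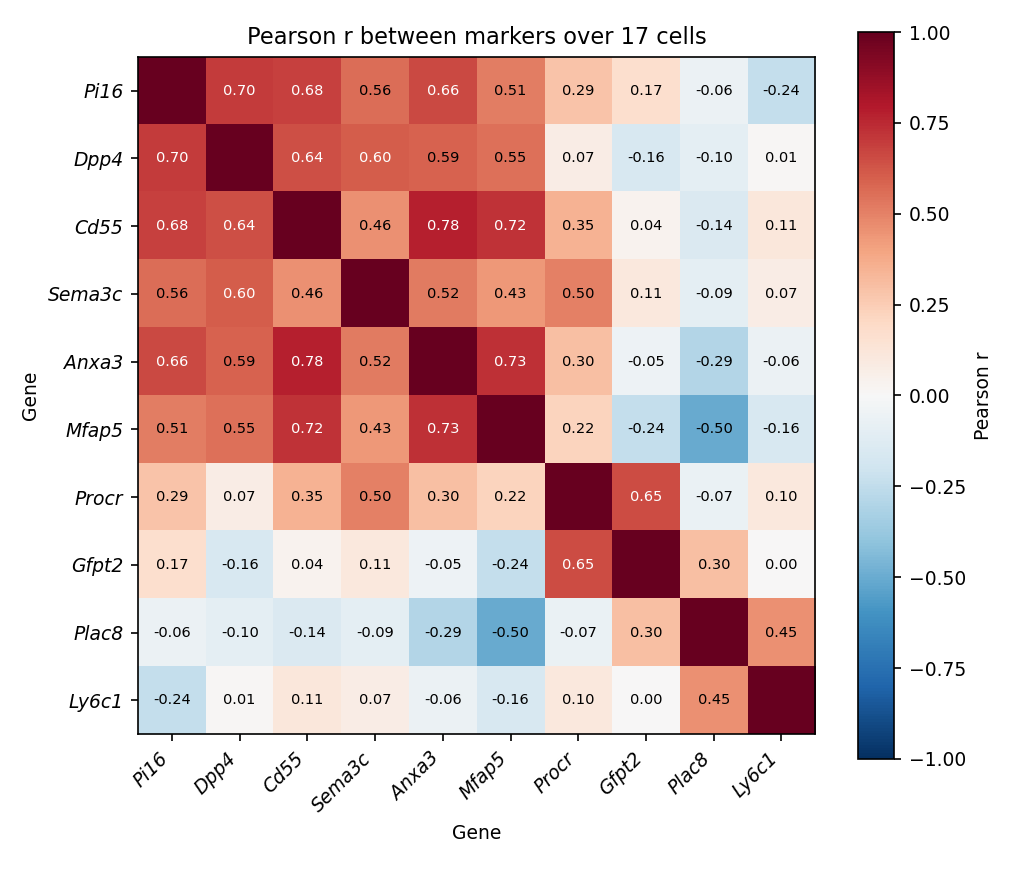
Pearson r between each pair of markers over 17 cells, on a colour scale from −1 (blue) to 1 (red). The upper left block of Pi16, Dpp4, Cd55, Sema3c, Anxa3 and Mfap5 is red throughout (r from 0.43 to 0.78), Procr and Gfpt2 pair at 0.65, and Plac8 with Mfap5 is the darkest blue at −0.50.

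Pi16, Dpp4, Cd55, Sema3c, Anxa3 and Mfap5 varied together. This set of 6 was picked after the correlations were seen, so its values describe that choice. Its 15 pairs all had r above 0, from 0.43 to 0.78, with a median of 0.603, and 13 reached 0.5. The highest was Cd55 with Anxa3 at r = 0.78 (Spearman 0.79), which ran from 0.66 to 0.84 when each cell was left out in turn and was 0.68 without the 2 cells farthest from the median of Cd55. Anxa3 with Mfap5 came next at r = 0.73 (Spearman 0.79, 0.63 to 0.79 with cells left out, 0.56 without the 2 farthest). Cd55 with Mfap5 followed at r = 0.72 (Spearman 0.67, 0.63 to 0.79, and 0.51). Leaving out cell 13, which was lowest for all 3 genes of these pairs, gave the low end in each.

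Pi16 and Dpp4, the markers that name the population, had r = 0.70 (Spearman 0.69), from 0.60 without cell 11 to 0.86 without cell 8. Cell 8 had Dpp4 at 6.97 but Pi16 at 1.72. Dpp4 with Cd55 had r = 0.64 (Spearman 0.76). Among 6054 genes Pi16 stood at place 5 in likeness to Dpp4, and Dpp4 at place 17 in likeness to Pi16.

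Averaged over the 6 genes after scaling each to its own mean and SD, cell 11 stood highest at 1.30 SD, then cell 15 at 0.84 and cell 6 at 0.79. Cell 13 was lowest at −1.36, then cell 16 at −1.28 and cell 7 at −1.07. This mean had r = 0.04 with the count of genes at the lowest value. The median r of the 15 pairs was 0.577 without cell 11, 0.572 without cell 16 and 0.537 without cells 7, 13 and 16, where 9 pairs reached 0.5. It was 0.607 in cells 6 to 14 alone and 0.606 with the means of the 3 sets of cells subtracted.

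A keratinocyte gene was also high in cells 11 and 15. Krtdap, a gene of differentiating keratinocytes, was at 13.69 in cell 15, where it was the top gene, and at 12.27 in cell 11, and was at most 8.66 in the other cells. Krtdap was chosen after its values were seen. It was detected in 14 cells, and its r with the 6 genes ran from 0.26 to 0.52. Against the scaled mean of the 6 genes it had r = 0.44 over all cells and 0.14 without cells 11 and 15. Without these 2 cells the median r of the 15 pairs was 0.594, and 11 pairs reached 0.5. Of 11 listed keratinocyte genes 2 had a row, Krt10, detected in 5 cells, and Krt79, in 1.

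Outside the set of 6 the markers went other ways. Procr had a median r of 0.294 with the 6 genes, Gfpt2 of −0.01, Plac8 of −0.12 and Ly6c1 of −0.03. Procr and Gfpt2, whose upstream stretches are printed above, correlated with each other at r = 0.65 (Spearman 0.57). This pair leaned on cell 5, which was lowest for both: r was 0.45 without that cell, 0.38 without cells 5 and 11, and 0.78 without cell 16. With set means subtracted it was 0.80. Cell 16 had Gfpt2 at 8.67 but Procr at 3.75.

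Plac8 ran against Mfap5 (r = −0.50, Spearman −0.69), the lowest r of all pairs. Cells 8, 9, 14 and 15, which had Plac8 below its gap, were 4 of the 5 cells with the highest Mfap5, at 10.88 to 11.96. Cell 7, also below the gap, went the other way with Mfap5 at 7.40, and without it r was −0.78. Without cell 8 r was −0.41, in cells 6 to 14 alone −0.38, and with set means subtracted −0.44. The next lowest pairs were Anxa3 with Plac8 (r = −0.29, Spearman −0.42, −0.42 to −0.20 with cells left out) and Pi16 with Ly6c1 (r = −0.24, Spearman −0.19, −0.37 to −0.15). With the 2 farthest cells left out these were −0.08 and −0.28, and Plac8 with Mfap5 was −0.26. Plac8 with Ly6c1 had r = 0.45.

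**Figure D4:**
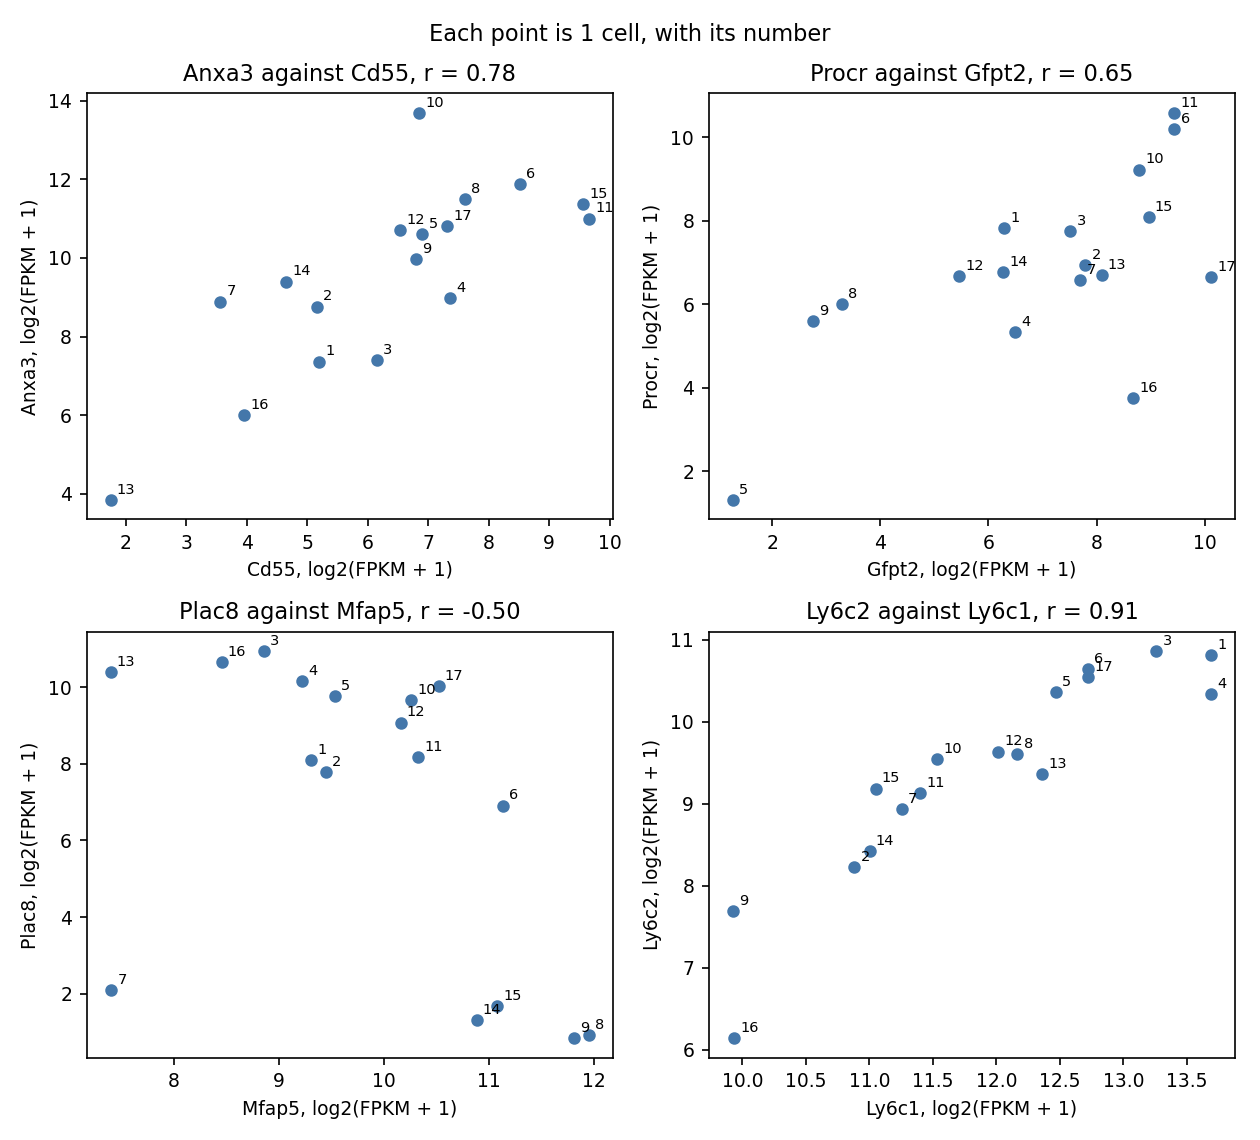
Value in each cell (numbered points), as log2(FPKM + 1) on both axes, for Anxa3 against Cd55, Procr against Gfpt2, Plac8 against Mfap5 and Ly6c2 against Ly6c1. Cell 13 is lowest for both genes in the first panel (3.84 and 1.75), cell 5 for both in the second, and Ly6c2 climbs with Ly6c1 (r = 0.91).

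For each marker the 3 most similar other genes were found by Pearson r over the 17 cells among 6045 genes detected in 5 or more cells. With 6045 genes and 17 cells high values are easily reached, and each marker had 4 to 14 genes at r of 0.7 or more. Ly6c1 had the closest of all in Ly6c2 (r = 0.91, Spearman 0.94, 0.90 to 0.93 with cells left out), whose mean was 9.38. The 2 genes share 252 of the 795 stretches of 50 bases of the Ly6c1 transcript, and 36.7% of its stretches were shared with some other gene, 22.6% in the last 500. Reads may thus have been divided between them, and their levels and likeness are uncertain. No stretch of the other markers apart from Cd55 occurred in another gene.

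After Ly6c2, Ly6c1 was most like Lamp2 (r = 0.80) and Wbp5 (0.79). Pi16 was most like Gramd3 (r = 0.86), Limch1 (0.80) and Mesdc1 (0.77), and Dpp4 most like Trpc1 (0.77), Zfp607 (0.76) and Pcgf2 (0.71). Limch1, Mesdc1 and Pcgf2 were detected in only 5 cells each. Cd55 was most like the actin-binding gene Dbn1 (r = 0.75), Tmem126a (0.73) and the growth factor Fgf2 (0.72), with Spearman 0.69, 0.71 and 0.53.

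Sema3c was most like Azin1 (r = 0.84), Puf60 (0.81) and Sec24d (0.80), and Mfap5 most like Txndc5 (0.78), Cog4 (0.73) and Eftud2 (0.72). Anxa3 was most like Atp6v1e1 (r = 0.80), Plxdc2 (0.79) and Psmd8 (0.78). By Spearman these 3 were 0.58, 0.80 and 0.64, and with cells left out they fell as low as 0.66, 0.73 and 0.63. Procr was most like Arl4a (r = 0.78), Adgrg2 (0.78) and Rsrc2 (0.78). Rsrc2 also led for Gfpt2 (0.76), followed by the interferon-induced chemokine Cxcl10 (0.76) and the histone demethylase Kdm6b (0.71). Arl4a and Rsrc2 were lowest in cell 5, at 2.24 and 1.49, as were Procr and Gfpt2. With each cell left out in turn, r with Procr fell as low as 0.63 for Arl4a, 0.73 for Adgrg2 and 0.59 for Rsrc2. With Gfpt2 it fell as low as 0.61 for Rsrc2 (Spearman 0.58), 0.72 for Cxcl10 and 0.66 for Kdm6b. Cxcl10 itself ran from 0 in cells 4 and 5 to 10.98 in cell 7.

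Plac8 was most like Ifi205 (r = 0.82), an interferon-inducible gene, the selenium carrier Sepp1 (0.81) and the complement protease C1s2 (0.79). Ifi205 was far steadier than Plac8, from 7.03 in cell 15 to 10.72 in cell 4 (SD 1.10).

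The wider set of fascia and adventitia genes was examined next, from a list of 30 that leaves out the 10 markers. Of these, 27 had a row and 12 reached detection in every cell, with 17 to 25 found per cell (median 21). The 4 highest of those detected in all cells were Igfbp6, an IGF-binding protein (mean 10.26, SD 0.78), Tnfaip6, which modifies hyaluronan (10.14, SD 1.68), the surface sialomucin Cd34 (9.67, SD 0.93) and the collagen-associated Dpt (9.09, SD 0.86). Il33, an alarmin, was detected in 1 cell only, at 1.16 in cell 7. Against the 6 co-varying markers the 26 genes detected in 3 or more cells had a median r of 0.227, and 19 (73.1%) lay above 0, where 49.9% of all genes did, with a median of −0.001. A share above that of all genes was not particular to this list. It was 81.8% for the hexosamine list below (median 0.216), 66.7% each for the annexin and protein C lists and 63.6% for housekeeping genes. It was 35.3% for the Col15a1-type list and 12.5% for fibroblast identity genes. Opcml (0.58) and Tek (0.50), both chosen after their values were seen, lay highest in the fascia and adventitia list, and Clec3b (−0.22) lowest. Some genes stand in more than 1 list. Tek is also an endothelial gene of the list above, where Plvap (−0.35), Eng (−0.26) and Esam (−0.03) lay below 0. Has1 is also in the hexosamine list, and Fbn1 and Emilin2 are in the microfibril list.

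Igfbp6, Tnfaip6 and Cd34 did not follow the 6 genes, with median r of 0.03, −0.11 and −0.08. Tnfaip6 had r = 0.66 with Gfpt2, and Cd34 had r = 0.68 with Ly6c1, each picked as the gene's highest r with any of the 10 markers. Dpt had a median r of 0.26 with the 6 genes.

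Fibroblasts that lie within the tissue are marked by another list, with Col15a1 and basement membrane genes, and all 18 of its genes had a row. In it 9 genes were detected in all cells, led by Apod (mean 7.52, SD 2.36), Nid1 (7.44, SD 1.17), Lamc1 (6.78, SD 1.26) and Penk (6.41, SD 2.62). Col15a1 itself was detected in 16 cells, with a mean of 3.79. The median r of 17 of its genes with the 6 markers was −0.242, and 6 lay above 0. Sparcl1 (−0.60) and Cxcl12 (−0.51) were lowest, while Lamb1 (0.57) and Nid1 (0.44) were highest. No cell lacked genes of either list, with 12 to 18 of the second detected in each cell.

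Genes of fibroblast identity went a similar way. Of 16 genes 2 (12.5%) had a median r above 0 with the 6 markers, Fstl1 (0.54) and Thy1 (0.33), and the median over the list was −0.210. Its 4 highest were S100a4 (mean 11.32), Col3a1 (11.15), Col1a2 (10.98) and Pcolce (10.90), with median r of −0.23, −0.15, −0.34 and −0.24. Lum, a collagen-binding proteoglycan, had −0.50. Since every cell holds nearly the same set of sorted values, a gene that stands higher in a cell leaves others lower there. How far this sets the negative values was not tested.

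**Figure D5:**
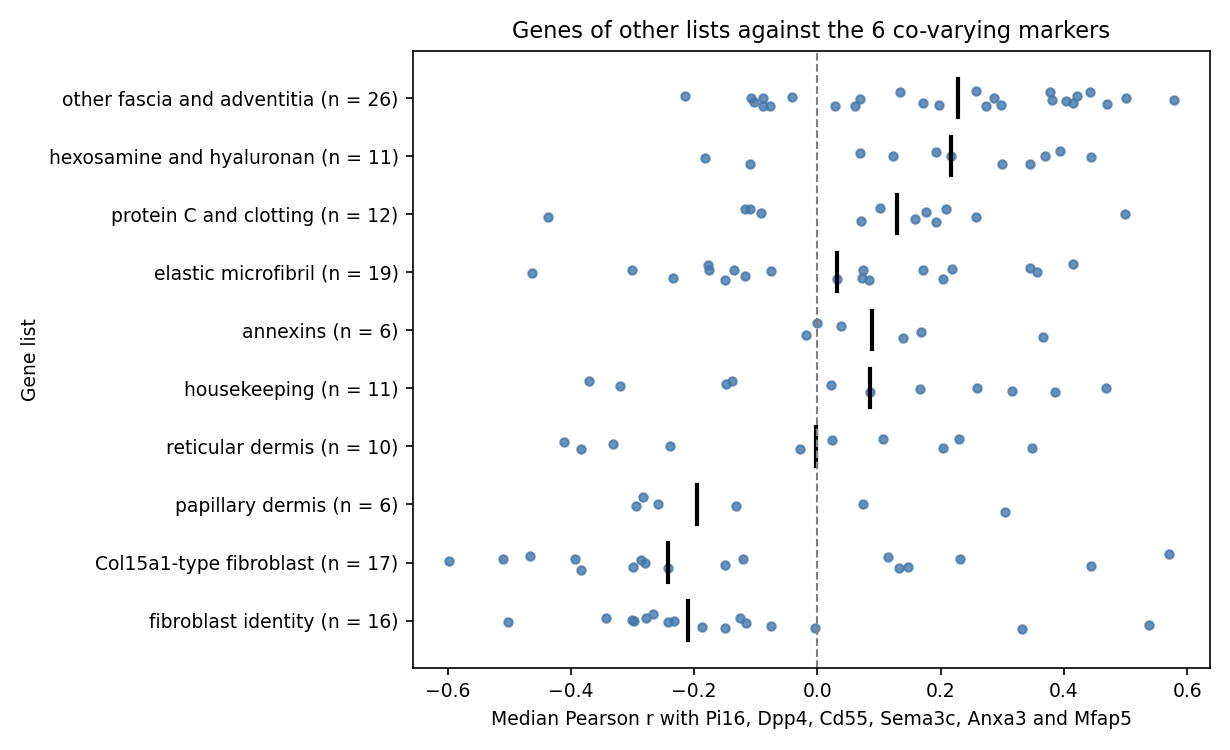
Median Pearson r of each gene (points) with Pi16, Dpp4, Cd55, Sema3c, Anxa3 and Mfap5 over 17 cells, by gene list, with the median of each list as a black bar. The bar lies at 0.227 for the other fascia and adventitia genes and at −0.242 for the Col15a1-type list, and the points of every list spread to both sides of 0.

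Genes of the layers of dermis were less complete. Of 14 papillary genes 6 had a row and 0 were detected in all cells, with Ntn1 in 13 cells (mean 3.07), Lrig1 in 10 (4.17), Col18a1 in 7 (1.77) and Ptgs1 in 4 (1.34). Their median r with the 6 markers was −0.196. Of 12 reticular genes 11 had a row and 4 were detected in all cells, namely Gpx3 (mean 11.57), Thbs2 (7.58), Ccl11 (7.07) and Mgp (6.66), and the median r was −0.003. Of 12 housekeeping genes all had a row, and their median r was 0.085.

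The relatives and partners of each marker except Plac8 were read from further lists. For Gfpt2, 12 of 14 symbols of the hexosamine and hyaluronan list had a row (Oga, without one, is a newer symbol for Mgea5, which has one). Uap1 (mean 9.38, SD 1.36), Ugdh (8.33, SD 1.93) and the hyaluronan synthase Has1 (6.72, SD 2.48) were detected in all cells. The median r of this list with the 6 markers was 0.216. Gnpnat1 was detected in 15 cells (mean 5.01), and the paralog Gfpt1 in 10, with a mean of 2.20 against 6.96 for Gfpt2. With Gfpt2 itself Uap1 had r = 0.56, Has1 0.51 and Ugdh 0.36, but Gnpnat1 −0.23.

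For Procr, 12 of 14 genes of the protein C and clotting list had a row. Gas6 (mean 6.15, SD 2.56), the plasminogen activator Plat (5.68, SD 1.68), the protein C cofactor Pros1 (5.55, SD 1.67) and the protease inhibitor Serpine2 (5.44, SD 3.02) reached detection in every cell. Thbd, the thrombin receptor that acts beside Procr, was detected in 9 cells (mean 2.64) and had r = 0.38 with it. The median r of this list with the 6 markers was 0.130, from −0.44 for Gas6 to 0.50 for Plat.

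For Mfap5, 19 of 20 elastic microfibril genes had a row and 5 were detected in all cells, led by Fbln2 (mean 7.77, SD 0.90), Mfap2 (7.22, SD 2.04), Fbn1 (7.07, SD 1.34) and Loxl1 (6.42, SD 1.48). Fbn1, the fibrillin to which Mfap5 binds, had r = 0.56 with it, and Mfap2, the other member of the pair, −0.13. Elastin (Eln) was detected in 15 cells with r = 0.00, and the median r of the list with the 6 markers was 0.031.

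For Anxa3, 6 of 11 other annexins had a row, and Anxa1 (mean 9.72, SD 0.93), Anxa5 (8.71, SD 1.63), Anxa2 (8.09, SD 1.45) and Anxa4 (5.40, SD 1.61) were detected in all cells along with Anxa6. Anxa1 had the highest median r with the 6 markers, 0.37. With Anxa3 itself r was 0.70 for Anxa1, 0.35 for Anxa5, 0.21 for Anxa2, 0.00 for Anxa4 and 0.29 for Anxa6. Anxa5 and Anxa2 had r of −0.70 and −0.67 with Plac8, both picked after the values were seen. For Ly6c1, 6 of 16 genes of its family had a row, with Ly6e (mean 7.76) in all cells as well as Ly6c2, then Ly6i in 14 cells (2.94) and Plaur in 11 (3.14).

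For Cd55, 7 of 11 complement regulators had a row. Serping1 was detected in all cells (mean 9.95, SD 1.63), Cr1l in 16 (6.48) and Clu in 13 (2.06), and Cr1l, another regulator of convertases, had r = 0.31 with Cd55. For Dpp4, 9 of 11 related proteases and partners had a row, with Cav1 (mean 7.36) and the paralog Fap (5.00) in all cells, and Cxcl12 (5.66) and Dpp7 (4.92) in 16. For Sema3c, 4 of 14 semaphorins and receptors had a row, with its receptor Nrp1 in 14 cells (mean 2.94), Sema3b in 7, Plxnd1 in 4 and Sema3a in 2. For Pi16, 2 of 9 CAP genes had a row, Glipr2 in 14 cells and Glipr1 in 2.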

How the data were processed

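Per the labels, single Tomato-positive cells from adult back skin were made into libraries with a 3′ end SMART-Seq v4 kit and Nextera XT. TopHat2 and Cufflinks were run against GRCm38, per the submitters' processing notes, with versions not given in the sources used here. What was deposited is a log scale of FPKM without a stated base or added constant. The values were read as the authors' log2(FPKM + 1), and each threshold in FPKM depends on this. No read counts were used, so depth is unknown and no detection limit can be given.

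Each cell was 1 column of the table. Where several rows had 1 symbol, the one highest on average was used. Coordinates, exonic lengths and transcripts came from GENCODE M21 (GRCm38), and upstream bases from RefSeq. Pearson r was taken on the deposited log2 values over 17 cells, with each cell left out in turn. Alternatives covered Spearman, a pseudocount of 0.1 in place of 1, thresholds at FPKM 5 and 10, any value above the lowest, values times exonic length, and sets of cells.

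The members and gene lists were chosen with earlier results of these data known, and the 6 co-varying markers, the sequence motifs and the runs without named cells after the values were seen. Named were all 10 markers, the 3 highest and 3 lowest pairs, the 3 genes most like each marker (without ribosomal protein genes and gene models) and, for each list, the 4 genes found in the most cells. A few others are named to show a list's range, and 2 list genes are not reported here. The software was Python 3.11.15 with matplotlib 3.10.9, scipy 1.17.1, pandas 2.3.3 and numpy 2.4.6.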

Additional observations from a re-analysis of the deposited data

How the results depend on the processing

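No paired analysis was possible because all 17 cells form 1 group. The number of markers detected in all cells was 6. It was 3 at FPKM 5, 3 at FPKM 10, 9 above the lowest value, 9 with values multiplied by exonic length, and 6 with any 1 cell left out. The median per cell was 9, and became 8 at FPKM 5, 8 at FPKM 10, 10 above the lowest value and 10 with length, with 9 whichever cell was left out. The median r of the 45 pairs, 0.222, was 0.442 in cells 6 to 14 and 0.114 among the 6 markers detected in all cells, and ran from 0.148 without cell 6 to 0.431 without cell 5. It was 0.279 by Spearman, 0.218 with a pseudocount of 0.1 and 0.262 with set means subtracted. The 15 pairs at r of 0.5 or more became 4 (of 15 pairs) among markers detected in all cells, 17 by Spearman, 14 with the pseudocount, 12 with set means subtracted and 21 in cells 6 to 14, where 9.15% of all gene pairs reached 0.5. They ran from 12 to 17 with 1 cell left out. The median r of the 6 co-varying markers, 0.603, was 0.686 by Spearman and 0.633 with the pseudocount. Fewer cells or genes enter some of these settings by construction, and causes were otherwise not tested. With depth unknown, a value near 0 cannot be told apart from a transcript that was present and not captured.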
